A study of Mus musculus with 10 samples.

Results

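The neurotrophins Bdnf and Ntf3 and the neurotrophin receptors Ntrk2, Ntrk3, Ngfr and Sort1 were followed in the mouse hippocampus, with and without overexpression of the transcriptional coactivator PGC-1α in neurons. The members were taken by symbol, as every gene probe of the array whose RefSeq accession belongs to 1 of these 6 genes, out of 23462 genes that could be named. They were measured by 12 of 56605 distinct probes, of which Bdnf, Ntf3 and Ngfr had 1 each, Ntrk2 had 2, Sort1 had 3 and Ntrk3 had 4. This rule uses no measured value, but the members were chosen with earlier results of these data known.

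The study set PGC-1αf/f mice against nPGC-1α mice, both untreated, 12 weeks old, on a C57BL/6 background and given as male. PGC-1αf/f mice, the controls, carry a PGC-1α transgene with an IRES-eGFP reporter in the Rosa26 locus that is silenced by a floxed PGK-neo-STOP cassette, and nPGC-1α mice carry the same transgene plus Cre recombinase under the neuronal Eno2 promoter, so the endogenous Ppargc1a gene is intact in both groups. Total RNA of the hippocampus was hybridised to 1-colour Agilent arrays, 10 arrays in all, with 5 labelled PGC-1αf/f and 5 labelled nPGC-1α. The question was which hippocampal transcripts differ when neurons carry more PGC-1α.

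Neurotrophins are secreted as precursors that are cleaved to mature ligands. Mature BDNF binds TrkB, the product of Ntrk2, and mature NT-3 binds mainly TrkC, the product of Ntrk3, and these receptor kinases drive survival and synaptic plasticity signalling. Uncleaved precursors bind p75NTR, the product of Ngfr, together with sortilin, the product of Sort1. In the hippocampus Bdnf is made chiefly by excitatory neurons in response to activity, full-length Ntrk2 is a neuronal transcript, and the truncated Ntrk2 transcript, which lacks the kinase, is abundant in astrocytes. Exercise studies have linked PGC-1α to Bdnf through ERRα, the product of Esrra, and FNDC5.

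The Bdnf gene has several promoters, each ahead of its own 5′ exon, and the activity-driven one contains a CRE-like element, a site bound by CREB. Of 11 RefSeq promoter windows (GRCm38.p6, 250 bases before the start site and 50 after) found for Bdnf, Ntf3, Ngfr and Ntrk2, only 1 held the letters TCACGTCA on either strand. This window is shown because it locates the element within the ligand gene that has been linked to PGC-1α, with the element in capitals, 38 bases before the start site, on the + strand at chr2:109692186-109692485.

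Bdnf promoter: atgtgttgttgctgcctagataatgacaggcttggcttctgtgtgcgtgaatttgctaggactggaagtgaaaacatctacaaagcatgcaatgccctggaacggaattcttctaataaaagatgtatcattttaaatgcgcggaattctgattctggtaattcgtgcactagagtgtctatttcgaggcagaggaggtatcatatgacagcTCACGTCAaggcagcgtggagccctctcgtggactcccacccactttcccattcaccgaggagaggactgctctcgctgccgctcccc

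TCACGTCA was present in 0.44% of 32851 promoter windows of the same length. The full CRE, TGACGTCA, was in none of the 11 member windows (1.79% of all windows), nor was TNAAGGTCA, the element bound by ERRα (1.28% of all). The E-box CACGTG was found in 1 member window, that of Ntf3 on the - strand at chr6:126166695-126166994, and in 7.15% of all windows. These matches are descriptions of the letters in these windows.

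All levels below are log2 processed signals minus the log2 75th percentile of the same array, so that 0 is that percentile, and a difference is the nPGC-1α mean less the PGC-1αf/f mean on this scale. Levels of different probes cannot be set against each other. The 75th percentile was a processed signal of 3883 to 5080 in the control group and 4223 to 5253 in nPGC-1α. All 12 member probes were well above background on all 10 arrays, and no gene spot was saturated. Control arrays had 74.5% to 81.5% of their spots well above background and nPGC-1α arrays 67.2% to 73.4%, which did not overlap. Replicates 1 to 4 of both groups were on slide 1, with PGC-1αf/f in the first row and nPGC-1α in the second, and replicate 5 of both was on slide 2. The scanner software marked between 0.192% and 11.6% of the spots of an array as outliers, with the highest shares on replicate 1 of the controls (10.5%) and of nPGC-1α (11.6%). It also marked the local background around a spot, a mark that was not used to leave spots out. Ntrk2 A_51_P393454 and Ntrk3 A_52_P55706 carried it on 8 arrays and Ntrk2 A_55_P2006792 on 9, as did 7830 and 5932 of the 59305 gene spots on at least 8 and 9 arrays, and Ngfr and Sort1 A_55_P2076683 carried it on 2.

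The label male was not borne out on 6 of the 10 arrays, where no probe of the Y-linked genes was well above background. The 4 arrays with Y-linked transcripts were replicate 1 of PGC-1αf/f together with replicates 1, 3 and 5 of nPGC-1α. Ppargc1a, the gene overexpressed in nPGC-1α mice, had a difference of 0.00 (limma, adjusted p = 0.990). The arrays hold 2 Ppargc1a probes, of which only 1 entered the test. Whether that probe reads the transcript of the transgene was not tested. The Ppargc1a value therefore does not check the labels, and the direction of every value rests on the labels. The labels also give neuron as the cell type. Every array had markers of dentate gyrus (6 of 6 genes), CA1 (6 of 6) and CA2 and CA3 (9 of 9) well above background. The same was true of astrocyte (8 of 8) and oligodendrocyte (8 of 8) markers. Choroid plexus (8 of 9) and medial habenula (6 of 8) markers also reached this level on every array. As the median over genes, choroid plexus markers lay between -1.16 and 2.14 about their means over the 10 arrays. How much RNA came from outside the hippocampus was not tested. The RNA was therefore that of mixed tissue that included hippocampus and its glia. In such tissue, fewer cells of a type and less RNA per cell cannot be told apart.

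None of the 6 genes differed between the groups beyond the spread between arrays. Of the 11 member probes that could be tested with outlier spots left out, 0 were called at an adjusted p of 0.05 (limma, Benjamini-Hochberg over 39142 probes; 0.00255% of all tested probes were called) and 0 had an unadjusted p under 0.05, against 11.9% of all tested probes. With outlier spots kept, all 12 were tested and again 0 passed either threshold, which 0.00245% and 11.9% of all probes did. The values of the 2 groups overlapped for all 12 probes, whereas the groups did not overlap for 2.87% of all tested probes without the outlier spots and 2.5% with them. The difference was above 0 for 8 of the 11 probes, several of which share a gene, and for 40.8% of all tested probes. The 95% intervals given below bound what each probe allows.

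**Figure D1:**
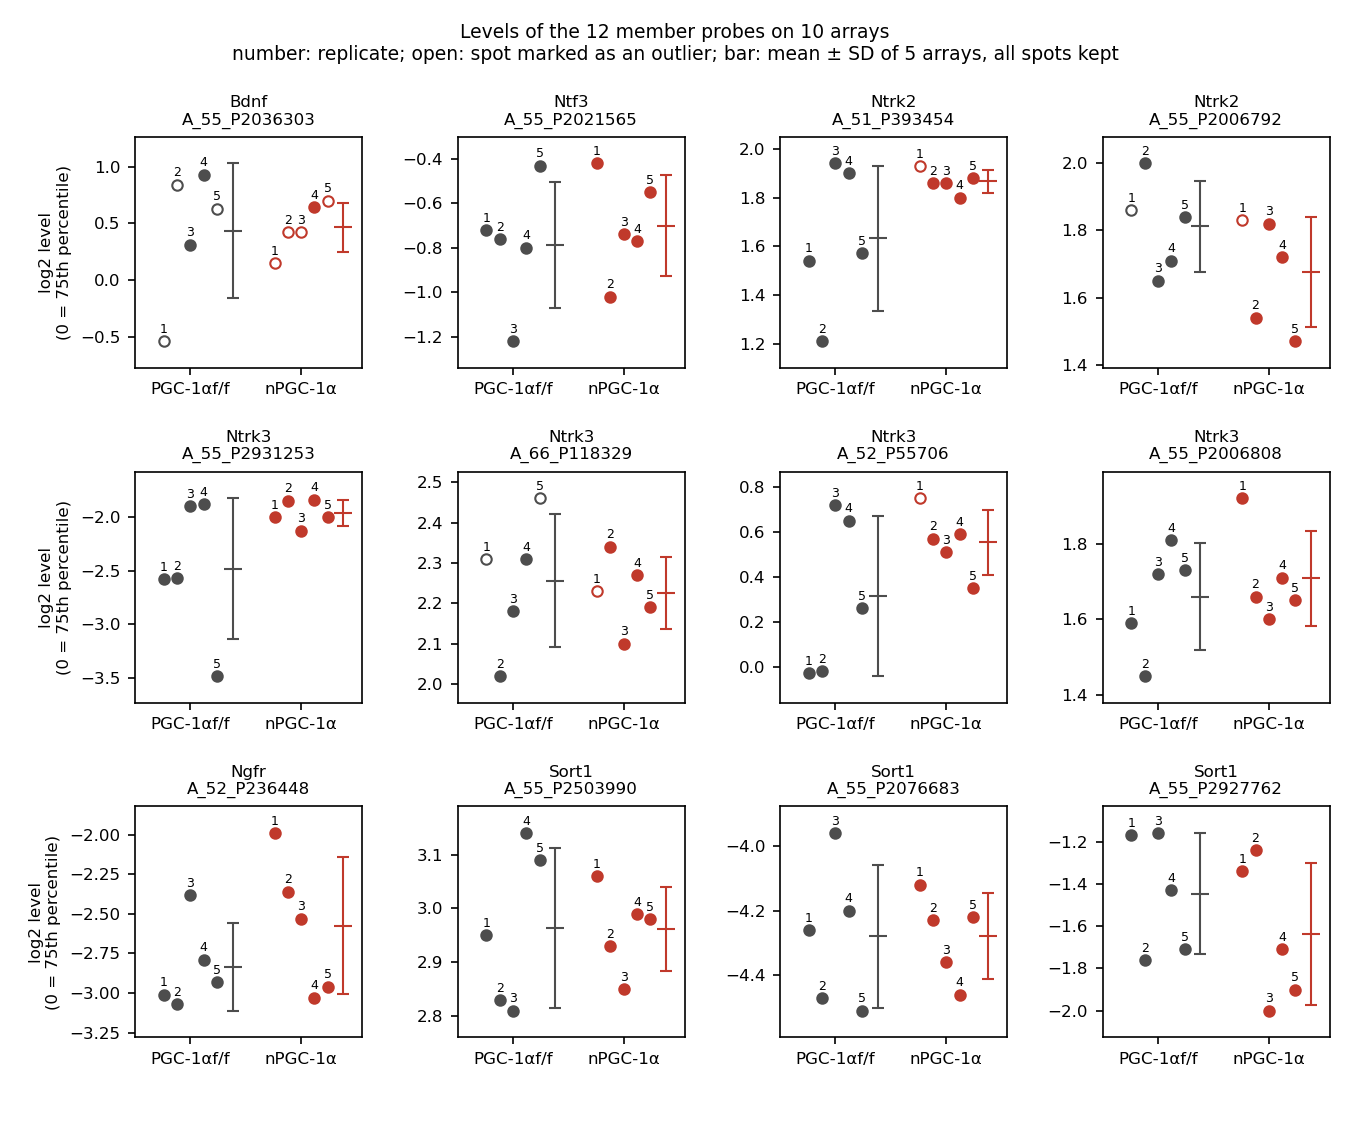
Level of each member probe on each array (log2, 0 = 75th percentile of the array), with PGC-1αf/f in grey, nPGC-1α in red, the replicate number above each point, open points for spots marked as outliers, and bars for the mean ± SD of 5 arrays. The groups overlap in all 12 panels, and Bdnf is marked on 7 arrays.

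Bdnf, the ligand of TrkB, was measured by A_55_P2036303. With every spot kept, its level was -0.54, 0.84, 0.31, 0.93 and 0.63 on PGC-1αf/f replicates 1 to 5. On nPGC-1α replicates 1 to 5 it was 0.15, 0.42, 0.42, 0.64 and 0.70. The lowest and the highest values were both in PGC-1αf/f, and the other group lay wholly between them.

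The Bdnf spot was marked as non-uniform on 7 arrays, replicates 1, 2 and 5 of the controls and 1, 2, 3 and 5 of nPGC-1α. Only 1.26% of the 59305 gene spots were marked on 7 or more arrays. The unmarked values were 0.31 and 0.93 in PGC-1αf/f and 0.64 in nPGC-1α, too few for a test. With all spots kept, Bdnf averaged 0.43 ± 0.60 (SD, n = 5) in PGC-1αf/f and 0.46 ± 0.22 (SD, n = 5) in nPGC-1α. The difference was 0.03 (SE 0.25, 95% interval -0.52 to 0.58, adjusted p = 0.970 by limma), or 1.02-fold with an interval of 0.696 to 1.498. The interval reaches on both sides of 0, so these arrays set only wide bounds on Bdnf.

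The sign of the Bdnf difference turned on single arrays, most of all on PGC-1αf/f replicate 1. Without this array the difference was -0.21 (unadjusted p = 0.200, adjusted p = 0.712), and with only the 4 arrays that had Y-linked transcripts, where it is the sole control, it was 0.96, a value given with no test since that arm is 1 array. With the class of Y-linked signal as a block it was 0.25 (adjusted p = 0.643). Genes known to respond to BDNF or to activity were also lowest on that array. As the median over these genes, they lay 0.62 below their means over the 10 arrays. Of the 13 genes with a value there, 7 had their lowest value on it, Arc and Fos among them. The share of all genes with their lowest value on that array was not counted. Choroid plexus markers lay 0.77 below, oligodendrocyte markers 0.60 below, CA2 and CA3 markers 0.53 below and CA1 markers 0.39 below, whereas astrocyte markers lay 0.32 above and meningeal and mural markers 0.36 above. The part of these in the Bdnf value was not tested.

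Ntf3, which encodes NT-3, was measured by A_55_P2021565 with no marked spot. Its level was -0.72, -0.76, -1.22, -0.80 and -0.43 on PGC-1αf/f replicates 1 to 5 and -0.42, -1.02, -0.74, -0.77 and -0.55 on nPGC-1α replicates 1 to 5. The groups covered nearly the same range apart from the low PGC-1αf/f replicate 3. The means were -0.79 ± 0.28 (SD, n = 5) and -0.70 ± 0.23 (SD, n = 5), with a difference of 0.09 (95% interval -0.25 to 0.43, adjusted p = 0.843 by limma), or 1.06-fold.

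Ntrk2 had 1 probe under the accession of each form of TrkB. For Ntrk2 and Ntrk3 the form is given only by the accession of the probe, and which exons a probe reads was not tested. A_51_P393454 carries the accession of the full-length transcript (NM_001025074). Its level was 1.54, 1.21, 1.94, 1.90 and 1.57 on PGC-1αf/f replicates 1 to 5, and 1.86, 1.86, 1.80 and 1.88 on nPGC-1α replicates 2 to 5, with a marked spot at 1.93 on replicate 1. The nPGC-1α arrays lay close together, while PGC-1αf/f replicates 1, 2 and 5 fell below all of them and replicates 3 and 4 did not. The means were 1.63 ± 0.30 (SD, n = 5) and 1.85 ± 0.03 (SD, n = 4). The difference of 0.22 (SE 0.15, 95% interval -0.11 to 0.55) did not pass the test (unadjusted p = 0.168, adjusted p = 0.582 by limma), and with the marked spot kept it was 0.24 (adjusted p = 0.508).

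A_55_P2006792 carries the accession of the truncated transcript (NM_008745). On PGC-1αf/f arrays its level was 2.00, 1.65, 1.71 and 1.84 on replicates 2 to 5, with a marked spot at 1.86 on replicate 1. On nPGC-1α arrays it was 1.54, 1.82, 1.72 and 1.47 on replicates 2 to 5, with a marked spot at 1.83 on replicate 1. PGC-1αf/f replicates 1, 2 and 5, the low arrays for the full-length probe, were here the 3 highest of the 10. The means were 1.80 ± 0.16 (SD, n = 4) and 1.64 ± 0.16 (SD, n = 4), and the difference of -0.16 (95% interval -0.44 to 0.12) did not pass the test (adjusted p = 0.631 by limma).

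The 2 Ntrk2 probes thus ran opposite to each other over the 10 arrays (Pearson r = -0.70, Spearman rho = -0.68), which share slides and scaling. Without PGC-1αf/f replicates 1 and 2, the arrays farthest from the median of the full-length probe, r was -0.36. The full-length minus truncated difference on each array averaged -0.15 ± 0.50 (SD, n = 4) in PGC-1αf/f and 0.21 ± 0.18 (SD, n = 4) in nPGC-1α. The 4 PGC-1αf/f values ran from -0.79 to 0.29 and the 4 nPGC-1α values from 0.04 to 0.41, so they overlapped. This shift of 0.36 towards the full-length probe did not pass a two-sided exact permutation test (p = 0.257, adjusted p = 0.429 over 5 such contrasts), in which the smallest possible p is 0.0286. With marked spots kept it was 0.37 (5 arrays against 5, exact permutation p = 0.111, adjusted p = 0.278).

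**Figure D2:**
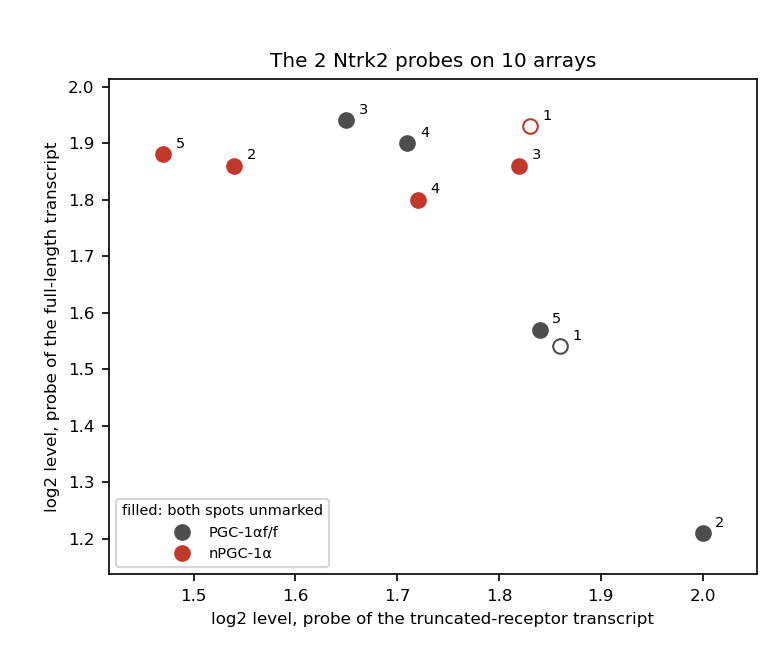
Level of the full-length Ntrk2 probe (y axis, log2) against that of the truncated Ntrk2 probe (x axis, log2) on 10 arrays, with PGC-1αf/f in grey, nPGC-1α in red and open points where either spot was marked. PGC-1αf/f replicates 1, 2 and 5 lie at the lower right, at 1.54, 1.21 and 1.57 for the full-length probe.

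Astrocyte markers were read beside the truncated probe, since this form is known from astrocytes. On each array, the deviation of each astrocyte gene from its mean over the 10 arrays was taken, and the median over these genes is given. It ran from -0.11 to 0.32 and was highest on PGC-1αf/f replicate 1. On PGC-1αf/f replicate 2, the highest array for the truncated probe, it was 0.09, and on PGC-1αf/f replicate 5 it was -0.01. None of the 8 astrocyte genes passed the test at an unadjusted p of 0.05. The pan-neuronal markers deviated by between -0.13 and 0.20. Medial habenula markers had a median deviation of 0.88 on PGC-1αf/f replicate 2, the lowest array for the full-length probe. Choroid plexus markers were at 0.84 there, and ranged from -1.16 to 2.14 over the arrays. The part of cell composition in the Ntrk2 values was not tested further.

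Ntrk3, the NT-3 receptor TrkC, had 2 probes under the accession of the full-length transcript (NM_008746) and 2 under that of a truncated transcript (NM_182809). The full-length probe A_55_P2931253 had the largest difference of all member probes. Its level was -2.58, -2.57, -1.90, -1.88 and -3.48 on PGC-1αf/f replicates 1 to 5. On nPGC-1α replicates 1 to 5 it was -2.00, -1.85, -2.13, -1.84 and -2.00. The same 3 PGC-1αf/f arrays as for full-length Ntrk2, replicates 1, 2 and 5, lay below every nPGC-1α array, and PGC-1αf/f replicates 3 and 4 lay among them.

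The means for this probe were -2.48 ± 0.66 (SD, n = 5) and -1.97 ± 0.12 (SD, n = 5), a difference of 0.52 (SE 0.26, 95% interval -0.07 to 1.097). This is 1.43-fold with an interval of 0.955 to 2.14, and it did not pass the test (unadjusted p = 0.0772, adjusted p = 0.473 by limma). PGC-1αf/f replicate 5 carried much of it, since without this array the difference was 0.26 (adjusted p = 0.528). The slides differed in the same way, with 0.27 over the 8 arrays of slide 1 and 1.48 for the pair of arrays on slide 2. The difference was above 0 under all 27 alternative settings, from 0.25 to 0.67, and the lowest adjusted p among them was 0.258.

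The other full-length Ntrk3 probe did not show this pattern. A_66_P118329 was at 2.02, 2.18 and 2.31 on PGC-1αf/f replicates 2 to 4, and at 2.34, 2.10, 2.27 and 2.19 on nPGC-1α replicates 2 to 5. Its marked spots, on replicates 1 and 5 of the controls and replicate 1 of nPGC-1α, were at 2.31, 2.46 and 2.23. The difference was 0.05 (95% interval -0.23 to 0.33, adjusted p = 0.883 by limma) without them and -0.03 with them, so its sign depends on spots that the software marked. PGC-1αf/f replicate 5, the lowest array for A_55_P2931253, was the highest for this probe under the same accession, although that spot was marked. With all spots kept, the probes of this accession had r = -0.34 over the 10 arrays and 0.87 without PGC-1αf/f replicates 1 and 5.

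Of the truncated Ntrk3 probes, A_52_P55706 was at -0.03, -0.02, 0.72, 0.65 and 0.26 on PGC-1αf/f replicates 1 to 5. On nPGC-1α replicates 2 to 5 it was at 0.57, 0.51, 0.59 and 0.35, with a marked spot at 0.75 on replicate 1. PGC-1αf/f replicates 1, 2 and 5 were once more the 3 lowest arrays. The means were 0.31 ± 0.36 (SD, n = 5) and 0.51 ± 0.11 (SD, n = 4), with a difference of 0.19 (95% interval -0.20 to 0.58, adjusted p = 0.684 by limma).

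A_55_P2006808, under the same truncated accession, ranged from 1.45 to 1.81 in PGC-1αf/f and from 1.60 to 1.92 in nPGC-1α. The difference was 0.04 (95% interval -0.17 to 0.26, adjusted p = 0.877 by limma), among the narrower intervals of the member probes. The full-length minus truncated shifts between the groups for the 4 pairs of Ntrk3 probes were 0.33, 0.47, -0.00 and 0.06. None passed the two-sided exact permutation test, and the lowest p was 0.0952 (adjusted p = 0.429), for A_55_P2931253 minus A_55_P2006808. The 2 larger shifts both contain A_55_P2931253.

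**Figure D3:**
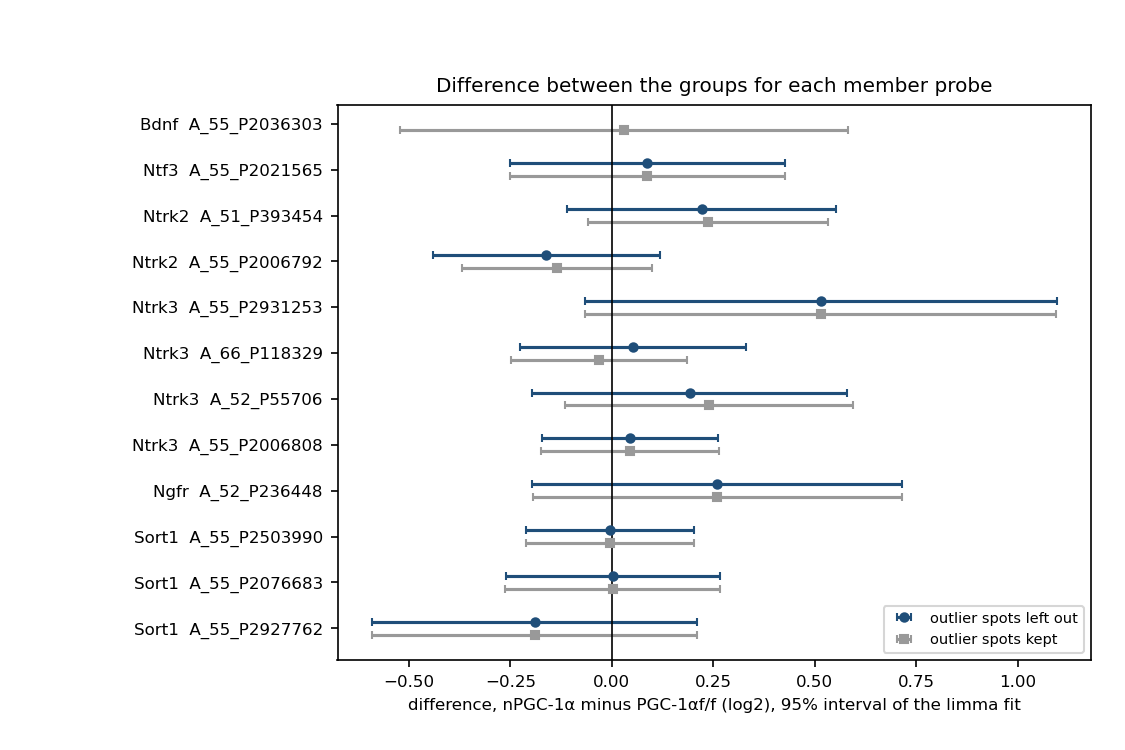
Difference between the groups for each member probe (x axis, nPGC-1α minus PGC-1αf/f, log2) with the 95% interval of the limma fit, in blue with outlier spots left out and in grey with them kept. Every interval contains 0, and the widest, for Ntrk3 A_55_P2931253, runs from -0.07 to 1.097.

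Ngfr, which encodes p75NTR, was measured by A_52_P236448 with no spot marked as an outlier. Its level was -3.01, -3.07, -2.38, -2.79 and -2.93 on PGC-1αf/f replicates 1 to 5 and -1.99, -2.36, -2.53, -3.03 and -2.96 on nPGC-1α replicates 1 to 5. The 2 highest arrays were nPGC-1α replicates 1 and 2, and nPGC-1α replicates 4 and 5 lay among the lowest arrays of the control group. The means were -2.83 ± 0.28 (SD, n = 5) and -2.57 ± 0.43 (SD, n = 5), a difference of 0.26 (SE 0.21, 95% interval -0.20 to 0.72, adjusted p = 0.641 by limma). Slide 1 gave 0.33 and the pair on slide 2 gave -0.03.

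In adult brain Ngfr is known from basal forebrain cholinergic neurons and from cells around vessels and in the meninges. Of 7 cholinergic marker genes, 5 could be tested and 3 were well above background on all 10 arrays. The median deviation of the tested genes from their means over the 10 arrays was 0.10 on nPGC-1α replicate 1. On nPGC-1α replicate 2 it was -0.11. The 8 meningeal and mural genes were all well above background, and they deviated by -0.11 and 0.17 on the same arrays. The part of such cells in the Ngfr values was not tested further.

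Sort1, the sorting receptor sortilin, had 3 probes without outlier spots. A_55_P2503990, which carries NM_001271599, was at 2.95, 2.83, 2.81, 3.14 and 3.09 on PGC-1αf/f replicates 1 to 5 and at 3.06, 2.93, 2.85, 2.99 and 2.98 on nPGC-1α replicates 1 to 5. All nPGC-1α values lay within the control range. The means were 2.97 ± 0.15 (SD, n = 5) and 2.96 ± 0.08 (SD, n = 5), a difference of -0.01 with a 95% interval of -0.21 to 0.20 (adjusted p = 0.986 by limma). In linear terms the interval was 0.864-fold to 1.15-fold, the narrowest of the member probes. Its sign changed with the scaling, being 0.09 after quantile normalization and 0.01 after scaling to the median.

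The other Sort1 probes did not pass the test either. A_55_P2076683, under the same accession, had a difference of 0.00 (95% interval -0.26 to 0.27). A_55_P2927762, under NM_019972, ranged from -1.76 to -1.16 in PGC-1αf/f and from -2.00 to -1.24 in nPGC-1α. Its difference was -0.19 (95% interval -0.59 to 0.21, adjusted p = 0.696 by limma), negative under all 27 alternatives, from -0.58 to -0.10.

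Across the members, the control arrays varied more than the nPGC-1α arrays. With all spots kept, the SD was larger in PGC-1αf/f for 9 of 12 member probes (75%), and for 66.2% of all tested probes, so the members differ little from the array as a whole in this. The lowest value of a probe was on PGC-1αf/f replicate 2 for 4 of the 12 probes, and the highest was on nPGC-1α replicate 1 for 4. On PGC-1αf/f replicate 2 the median member probe lay 0.22 below its mean, and on nPGC-1α replicate 1 it lay 0.19 above.

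**Figure D4:**
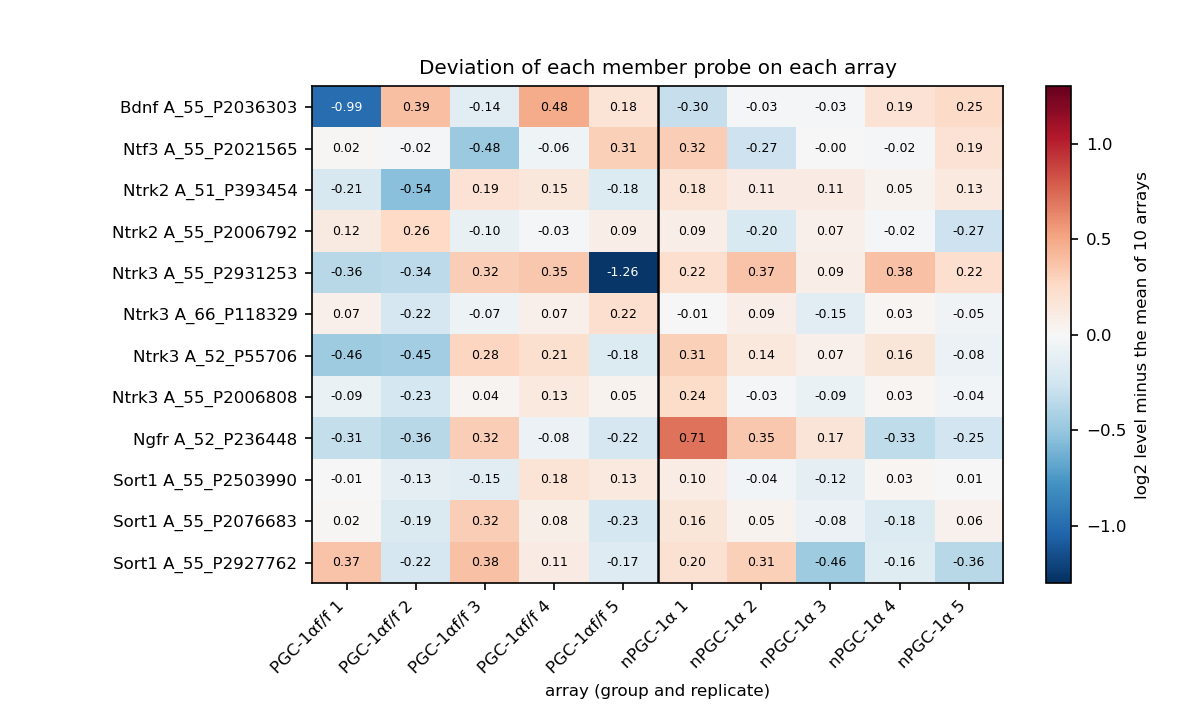
Level of each member probe on each array minus its mean over 10 arrays (log2, colour and printed value), with all spots kept and a line between the groups. The largest deviations are -1.26 for Ntrk3 A_55_P2931253 on PGC-1αf/f replicate 5 and -0.99 for Bdnf on PGC-1αf/f replicate 1.

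Some member probes moved together over the 10 arrays. Full-length Ntrk2 and the truncated Ntrk3 probe A_52_P55706 had the highest correlation (Pearson r = 0.88, Spearman rho = 0.87), and r was 0.77 without PGC-1αf/f replicates 1 and 2. The pairs that followed were the truncated Ntrk3 probes with each other (r = 0.75), Ntrk3 A_66_P118329 with Sort1 A_55_P2503990 (r = 0.72, or 0.55 without PGC-1αf/f replicates 2 and 5) and Ntrk3 A_52_P55706 with Ngfr (r = 0.71, or 0.66 without PGC-1αf/f replicates 1 and 2). The 10 arrays share slides, scaling and marked spots, and these values are descriptions.

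For each member gene, the genes with the most similar profile over the 10 arrays were taken among 21305 probes, using the member probe of highest signal. They were Prickle1 (r = 0.986) and Astn1 (r = 0.969) for Ntrk2, Irs1 (0.945) and Sun1 (0.943) for Ntf3, and Aasdh (0.944) and Sox17 (0.921) for Ngfr. For Bdnf they were Utp11 (r = 0.932) and Prr5l (0.920), for Sort1 Slc22a17 (0.930) and Rab3a (0.928), and for Ntrk3 Gpr1 (0.912) and Pcdh19 (0.877). Without the 2 arrays farthest from the member's median, r ranged from 0.697 for Pcdh19 with Ntrk3 to 0.933 for Prickle1 with Ntrk2. Utp11 fell to 0.706 without PGC-1αf/f replicates 1 and 4. Marked spots of the member probes were kept here, on 7 arrays for Bdnf, 3 for Ntrk3 and 1 for Ntrk2. Each gene was picked for the highest r among 21305 probes on only 10 arrays. How high r would rise among that many unrelated probes was not tested, so these values are descriptions.

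No other ligand or receptor of the family passed the test. Ntf5, which encodes NT-4, the other ligand of TrkB, had a difference of 0.25 (unadjusted p = 0.169, adjusted p = 0.583 by limma). Of the 9 genes of this list, 6 were above 0, as were 43.3% of all genes, and 0 had an unadjusted p under 0.05. By limma, the lowest p was for the Nogo receptor gene Rtn4r upward (0.26, adjusted p = 0.484) and for the sorting receptor gene Sorl1 downward (-0.09, adjusted p = 0.731).

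The wider pathway was read through 118 genes in 7 lists, of which 112 could be tested with 1 probe each. None passed an adjusted p of 0.05 (0.00568% of all 17597 genes tested this way did). At an unadjusted p of 0.05, 7 were higher and 2 lower in nPGC-1α, in total close to the 8.21% of all genes. The split leaned the other way from that of all genes, of which 3.18% were higher and 5.03% lower. Whether the splits differ was not tested. The median difference over the 112 genes was 0.01, against -0.02 over all tested genes. Genes from among these 9 are named here because of their values.

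**Figure D5:**
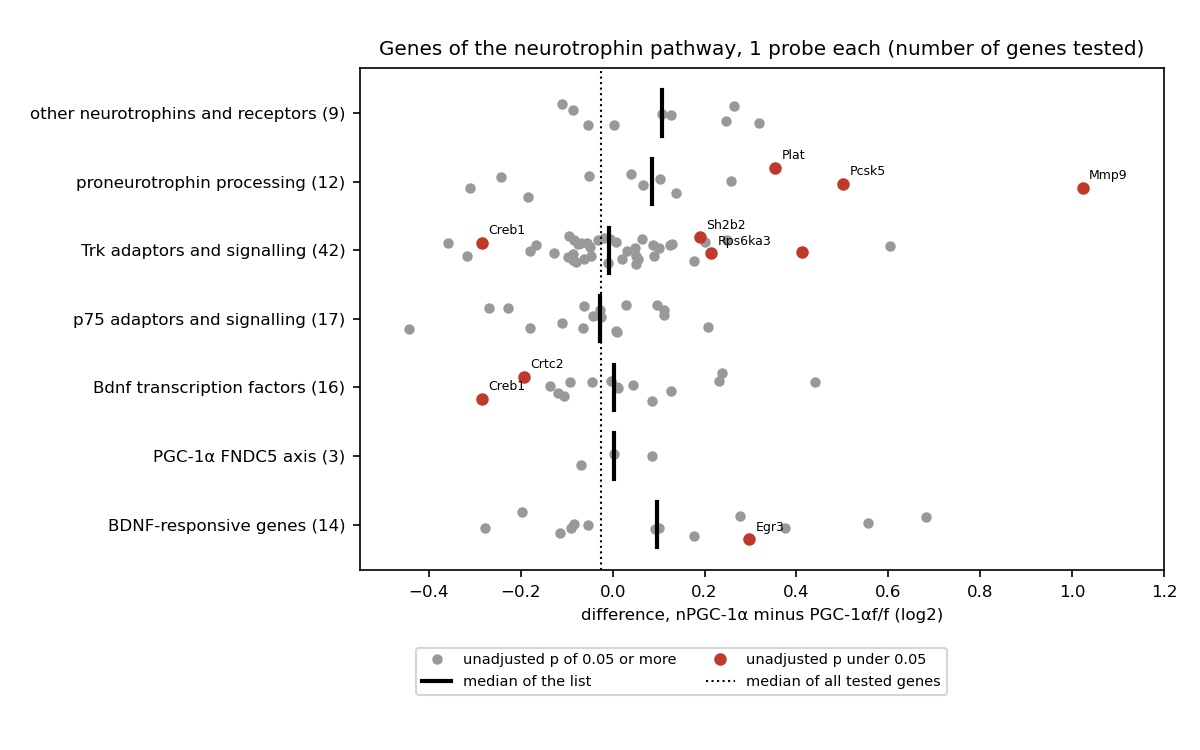
Difference between the groups (x axis, nPGC-1α minus PGC-1αf/f, log2) for each tested gene of the 7 pathway lists, with the number tested in brackets, a bar at the median of each list, a dotted line at the median of all tested genes, and red points with an unadjusted p under 0.05. Mmp9 lies farthest out at 1.02, and the list medians lie between -0.03 and 0.11.

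Genes that process the neurotrophin precursors gave 3 of the 7 higher genes. Of 14 genes, 12 could be tested, 3 were higher and 0 lower at an unadjusted p of 0.05, and the median difference was 0.08. Mmp9, a matrix metalloproteinase that can cleave proBDNF, was at -4.75, -5.31, -5.50, -5.61 and -5.85 on PGC-1αf/f replicates 1 to 5 and at -3.99, -4.43, -3.64, -4.51 and -5.33 on nPGC-1α replicates 1 to 5. Only nPGC-1α replicate 5 lay within the control range. The difference was 1.02 (SE 0.30, unadjusted p = 0.00567, adjusted p = 0.233 by limma), and a second Mmp9 probe gave 0.94 (unadjusted p = 0.0119, adjusted p = 0.283). It remained short of the adjusted threshold under all alternatives, with values from 0.43 to 1.26. The value of 0.43 is from only the arrays with Y-linked transcripts, where the control arm is 1 array.

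Plat, the tissue plasminogen activator that makes plasmin, had a difference of 0.35 (unadjusted p = 0.0325, adjusted p = 0.370 by limma). Plg, the plasminogen gene, had the lowest p downward with -0.31 (unadjusted p = 0.138, adjusted p = 0.552), and it was well above background on only 5 arrays. Pcsk5, a proprotein convertase gene, had a difference of 0.50 (unadjusted p = 0.00800, adjusted p = 0.258), but its second probe gave -0.44, so its probes disagreed in sign. Mmp3 and Mmp7 were above background on 0 arrays and were not tested.

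Among adaptors and kinases downstream of Trk receptors, 42 of 44 genes could be tested, 3 were higher and 1 lower at an unadjusted p of 0.05, and the median was -0.01. Sh2b2, an adaptor that binds Trk receptors, had the lowest p. It ranged from -1.12 to -0.91 in PGC-1αf/f and from -0.89 to -0.76 in nPGC-1α. The groups did not overlap, as for 2.87% of all tested probes. The difference was small at 0.19 (SE 0.08, unadjusted p = 0.0311, adjusted p = 0.367 by limma). The kinase gene Rps6ka3 was another at 0.21, and 2 further Rps6ka3 probes were below 0, at -0.15 and -0.28. Sos2, named here for its values, had 4 values in each group that did not overlap either (unadjusted p = 0.339 by limma).

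Creb1, which encodes CREB, was the lower gene of that list with -0.28 (unadjusted p = 0.0471, adjusted p = 0.413 by limma), and its 3 other probes were also below 0, from -0.66 to -0.10. The highest Creb1 values were on PGC-1αf/f replicates 1 and 2, at 1.08 and 0.95, and the other 3 control arrays, at 0.54 to 0.58, lay within the nPGC-1α range of 0.29 to 0.59. Creb1 also belongs to the list of factors that act on Bdnf promoters, where 16 of 17 genes could be tested, 0 were higher and 2 lower, with a median of 0.00. The other lower gene was Crtc2, a CREB coactivator, with -0.19 (unadjusted p = 0.0405, adjusted p = 0.398) and a second probe at 0.17. The groups did not overlap for the first Crtc2 probe either, as for 2.87% of all tested probes. Upward, the lowest p was for Arnt2, a partner of NPAS4 on activity-dependent promoters, with 0.44 (unadjusted p = 0.0934).

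Signalling genes of p75NTR (17 of 18 tested) had 0 genes under an unadjusted p of 0.05 in either direction, with 1 probe each, and a median of -0.03. A further probe of the kinase gene Mapk8 had a difference of 0.55 (SE 0.14, unadjusted p = 0.00211, adjusted p = 0.176 by limma), while the probe of highest signal gave 0.01 and the remaining one 0.00. Over all lists, 51 further probes of the pathway genes were tested, of which 3 were higher and 1 lower at an unadjusted p of 0.05 and 0 passed the adjusted threshold. Among the 17 tested p75NTR signalling genes, with 1 probe each, the lowest p upward was for Psen2, a γ-secretase subunit gene. Its difference was 0.21 (adjusted p = 0.466 by limma), and a further Psen2 probe gave 0.70 (adjusted p = 0.445 by limma). Downward, the lowest p in this list was for the adaptor gene Traf6 with -0.23 (adjusted p = 0.434 by limma), and a further Traf6 probe gave -0.08.

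No gene of the PGC-1α and FNDC5 axis passed the test. The difference was 0.00 for Ppargc1a (95% interval -0.18 to 0.19), whose 1 tested probe may not read the transgene. For Esrra it was -0.07 (adjusted p = 0.796 by limma) and for Fndc5 0.09 (95% interval -0.10 to 0.28, adjusted p = 0.711 by limma). Genes known to respond to BDNF or to neuronal activity (14 of 14 tested) had a median of 0.10, with 8 above 0. Egr3, an immediate early transcription factor gene, was the only one under an unadjusted p of 0.05, with 0.30 (unadjusted p = 0.0425, adjusted p = 0.404 by limma), and it ranged from 0.75 to 1.26 in PGC-1αf/f and from 1.09 to 1.60 in nPGC-1α. Downward, the lowest p by limma was for the secretogranin gene Scg2 with -0.28 (adjusted p = 0.562).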

How the data were processed

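The arrays were read from the deposited Agilent scanner files, whose processed signal is an intensity per spot that, per the file headers, the authors obtained with Feature Extraction 11.5.1.1 after background subtraction. The study's methods name another release of that software. The series also has the authors' log2 values for 41606 probes, used as an alternative for all members but Bdnf. The labels number the samples of a group without saying outright that each is a separate mouse, and the p-values measure only the spread between these samples, which may be technical.

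Control spots were left out. Spots marked as non-uniform or population outliers were left out as well, and were kept in a parallel fit. Signals were scaled to the 75th percentile of each array, taken as log2, and averaged over spots of a probe. A probe entered the test (39142 did) when all 5 arrays of a group were well above background and each group had at least 3 values. The two-sided test was that of limma 3.58.1 in R 4.3.3, with Benjamini-Hochberg adjustment. Intervals are those of the moderated fit. The procedure was tested on simulated data. Probes were named through RefSeq (GRCm38.p6), which gave 33767 of 56605 (59.7%) a symbol. The arrays were designed on mm9, so no probe position is given. Promoter windows are RefSeq's, and none was found for Ntrk3 or Sort1.

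The members, gene lists and marker lists were chosen with earlier results of these data known. Named beyond the members were, per list, the gene of lowest unadjusted p in each direction, Ntf5, the PGC-1α axis, the 2 most similar genes per member, and those said to be named for their values. Some genes under this rule are not reported here. A pathway gene was read through its tested probe of highest mean signal. Alternatives covered scaling, background correction, filters, slide and replicate blocks, variance models, an exact Mann-Whitney test, the class of Y-linked signal and leaving out each array. The number of arrays limits the precision.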

Additional observations from a re-analysis of the deposited data

Results flagged for a closer look

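For Ntrk3, the full-length probe A_55_P2931253 minus the truncated probe A_52_P55706 was -3.74 on PGC-1αf/f replicate 5, while the other 4 control arrays lay between -2.62 and -2.52, so that this array stood apart by 0.921 of the whole range of its group. A_55_P2931253 itself was at -3.48 on that array and A_52_P55706 at 0.26. Of 31 groups of values examined in this way 1 stood apart, and about 1.6 would by chance.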

How the results depend on the processing

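No member probe passed an adjusted p of 0.05 in any of 318 alternative fits, in which the lowest adjusted p was 0.258, and 32 of them changed the sign of a difference. Bdnf became -0.049 with normexp background correction and -0.016 with array weights. Ntf3 became -0.0014 with the class of Y-linked signal as a block, Ntrk3 A_66_P118329 -0.032 with marked spots kept and Ntrk3 A_55_P2006808 -0.013 with array weights. Sort1 A_55_P2503990 became 0.087 with quantile normalization, 0.0069 with median scaling, 0.11 with normexp, 0.072 in the authors' values, 0.023 on slide 1 only, 0.0016 with array weights and 0.014 with only the arrays that had Y-linked transcripts. Sort1 A_55_P2076683 became -0.069 on slide 1 only, -0.13 with array weights and -0.028 with the Y-linked class as a block. Among the Ntrk3 contrasts, A_66_P118329 minus A_55_P2006808 became -0.076 with marked spots kept, and A_66_P118329 minus A_52_P55706 became 0.029 with quantile normalization, 0.050 with normexp and 0.019 in the authors' values.

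Leaving out 1 array at a time gave -0.21 to 0.15 for Bdnf, -0.022 to 0.18 for Ntf3, -0.021 to 0.12 for Ntrk3 A_66_P118329, -0.0095 to 0.082 for Ntrk3 A_55_P2006808, -0.055 to 0.081 for Sort1 A_55_P2076683, -0.043 to 0.040 for Sort1 A_55_P2503990 and -0.14 to 0.16 for A_66_P118329 minus A_52_P55706. Counts over the same fits were 0 to 3 for all probes at the adjusted threshold, 3102 to 6034 at an unadjusted p of 0.05, 0 to 1 for member probes and 3 to 11 for pathway genes at that p. The member probe was Ntrk3 A_55_P2931253, without PGC-1αf/f replicate 3 (unadjusted p = 0.0296) or PGC-1αf/f replicate 4 (0.0264). It was also the 1 member probe under 0.05 with normexp (0.0389) and with slide as a block (0.0426).

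Over all probes, the 1 adjusted call became 0 with the percentile over detected probes, normexp, the filter on all 10 arrays and a common floor. It also became 0 with slide as a block, the replicate block, trend and robust variance, the Mann-Whitney test and the Y-linked block. It became 16 with median scaling, 10 with array weights and 4619 without the filter on dim probes. The 4662 probes at an unadjusted p of 0.05 became 10748 without that filter and 2950 with the Mann-Whitney test. The pathway lists went from 0 to 1 adjusted call without the filter, for Mmp7, which was above background on 0 arrays. A further Mapk8 probe, which did not stand for its gene, also passed (0.55, adjusted p = 0.0410 by limma). With a common floor the lists went from 9 to 14 genes at an unadjusted p of 0.05. Calls are not given for the fit with only the arrays that had Y-linked transcripts, where the control arm is 1 array. The cause of these changes was not tested. Scaling moved the median of all probes by less than 0.1, from -0.04 to -0.01.

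The labels give both groups the same replicate numbers. As deviations from their group means, arrays of the same number correlated at 0.215, 0.078, 0.113, 0.18 and 0.356 for replicates 1 to 5. For control replicates 1, 2 and 5 the most similar nPGC-1α array was that of the same number, and for replicates 3 and 4 it was not. On slide 1, arrays of the same number also shared a column. The main test did not take the numbers as pairs, and a replicate block was fitted as an alternative. With the replicate block, 0 member probes and 0 of all probes passed the adjusted threshold.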
